A study of Mus musculus with 36 samples.

Results

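The chromatin of 8 tissue-homing genes was followed in mouse CD4 T cells with and without a heterochromatin protein. ATAC-seq was used, which reads where a transposase can reach the DNA. The genes encode the chemokine receptors Cxcr3, Cxcr6, Ccr2, Ccr9 and Cx3cr1 and the integrin subunits Itga4, Itgae and Itgb7. A consensus peak was taken as a member when its midpoint was nearest to a protein-coding transcription start site (TSS) of one of these genes in the GENCODE annotation of GRCm39, or when it overlapped the gene body. This gave 94 of 71509 peaks, of which 7 belonged to Cxcr3, 8 to Cxcr6, 6 to Ccr2, 18 to Ccr9, 9 to Cx3cr1, 29 to Itga4, 11 to Itgae and 6 to Itgb7. Peaks are numbered within a gene from its 5′ side. Each of the 94 was tested in all comparisons, and the rule uses position alone.

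The proteins lost were HP1α, the product of Cbx5, or HP1γ, the product of Cbx3, which are readers of methylated histone H3. Knockout (KO) and wild-type (WT) cells of each line were set side by side in 3 conditions. Spleen CD4 T cells were profiled naive, before transfer, or were recovered 3 weeks after transfer as conventional T cells (Tconv), either injected alone or together with regulatory T cells (Treg). The hosts were irradiated B6 mice grafted with equal parts of B6 and B6D2F1 bone marrow, and the Treg were wild type and expanded in culture. There were 36 libraries in 12 groups of 3. HP1γ KO cells came from mice with floxed Hp1g and Cd4-cre, so that the gene is lost in T cells, and their WT littermates carried the floxed gene without cre. HP1α KO cells came from germline knockouts bred from floxed mice crossed to CMV-cre, with littermate controls. Donors were sex-matched littermates aged 6 to 12 weeks on a mixed 129/Sv and C57BL/6 background. The labels do not say whether libraries of a group came from separate animals, so p-values measure only the spread between these libraries.

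Libraries held 1.49 to 96.8 M reads in peaks, and the 94 peaks took 0.072 to 0.12% of them. The 4 shallowest, at 1.49 to 6.20 M, were HP1α WT with Treg replicates 2 and 3, HP1α KO with Treg replicate 3 and HP1α WT Tconv replicate 3. The study left out 3 libraries of the HP1α line with Treg. The comparison of HP1α KO and WT with Treg therefore rested on 1 KO and 2 WT libraries, with 50.7 M reads against 12.7 and 1.49 M, and a fit of all libraries is given beside it. Over the 3 peaks at the start sites of Cbx5 and Cbx3, KO minus WT differences ranged from -0.11 to 0.13 on the log2 scale and none was called, so accessibility does not check which libraries were knockout. Of the 6 T cell marker genes 5 had a peak near a start site. Their summed level was 1163 to 1487 CPM (counts scaled to library size) in HP1γ KO libraries and 438 to 938 in the others, where the Cd4 promoter region had 486 to 709 CPM in HP1γ KO libraries and 69.3 to 136 in the others. By the study's methods, transferred Tconv were recovered by CD4 enrichment and then by flow sorting on CD4, donor surface markers and the Vβ6 receptor chain, without the Thy1.1 mark of the injected Treg. That gate is meant to leave out other cell types and these Treg, and no purity is measured here. The HP1γ KO mice carry Cd4-cre, and the part of the transgene was not tested. NK cell and neutrophil markers had no peak (0 of 3 each), whereas the CD8 marker Cd8b1 had 27.0 to 35.4 CPM in naive libraries and 2.5 to 11.4 after transfer.

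Chemokine receptors are G protein-coupled receptors that guide T cells along chemokine gradients, and integrins are paired adhesion receptors that hold the cells to vessel walls and tissue. Naive T cells mostly circulate through lymphoid organs, and effector cells acquire new sets of these receptors, which direct them to inflamed sites, the gut or epithelia. The α4 subunit (Itga4) pairs with β7 (Itgb7) or with β1, the αE subunit (Itgae, CD103) pairs with β7 and binds E-cadherin on epithelium, and Ccr9 is a receptor of gut-homing cells.

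The sequences below are the central 300 bases of the peaks that carry the main differences, read 5′ to 3′ from the plus strand of GRCm39. Capitals mark every match, on either strand, to one of 9 short motifs: AP-1 TGANTCA, T-box TCACACC, RUNX TGTGGT, NFAT-like GGAAAA, ETS-like AGGAAGT, KLF GGGTGTG, nuclear receptor AGGTCA, E-box CAGCTG and SMAD CAGACA. The first set holds 3 of the peaks of smallest p, 1 for a gene, that were called between HP1γ KO and WT Tconv with Treg.
Cx3cr1 peak 2, chr9:119907361-119907660: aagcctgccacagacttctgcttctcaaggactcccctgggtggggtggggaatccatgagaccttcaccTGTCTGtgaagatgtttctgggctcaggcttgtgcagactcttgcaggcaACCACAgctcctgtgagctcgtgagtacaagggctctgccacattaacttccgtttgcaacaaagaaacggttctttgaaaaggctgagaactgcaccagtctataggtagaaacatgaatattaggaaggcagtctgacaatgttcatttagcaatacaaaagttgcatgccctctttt
Cxcr6 peak 3, chr9:123633521-123633820: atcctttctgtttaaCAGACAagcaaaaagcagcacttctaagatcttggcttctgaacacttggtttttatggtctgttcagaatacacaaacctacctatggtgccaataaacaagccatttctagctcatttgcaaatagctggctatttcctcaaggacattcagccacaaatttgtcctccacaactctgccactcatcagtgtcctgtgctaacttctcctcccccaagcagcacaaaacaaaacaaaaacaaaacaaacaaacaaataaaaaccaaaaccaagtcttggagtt
Ccr9 peak 5, chr9:123552201-123552500: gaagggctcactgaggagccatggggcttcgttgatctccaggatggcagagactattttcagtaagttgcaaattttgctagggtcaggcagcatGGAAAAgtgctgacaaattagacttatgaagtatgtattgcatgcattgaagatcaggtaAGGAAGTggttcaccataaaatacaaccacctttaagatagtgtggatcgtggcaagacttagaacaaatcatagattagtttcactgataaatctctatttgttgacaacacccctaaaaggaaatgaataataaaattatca
The second set holds the peaks of smallest p between Tconv and naive cells, again 1 for a gene.
Cxcr3 peak 4, chrX:100779381-100779680: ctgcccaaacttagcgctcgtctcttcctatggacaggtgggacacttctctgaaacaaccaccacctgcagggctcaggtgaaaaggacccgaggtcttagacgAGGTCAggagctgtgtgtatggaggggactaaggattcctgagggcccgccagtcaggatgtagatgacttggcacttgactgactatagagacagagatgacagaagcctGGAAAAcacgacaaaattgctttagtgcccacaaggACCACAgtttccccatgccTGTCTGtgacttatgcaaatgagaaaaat
Ccr2 peak 4, chr9:123899320-123899619: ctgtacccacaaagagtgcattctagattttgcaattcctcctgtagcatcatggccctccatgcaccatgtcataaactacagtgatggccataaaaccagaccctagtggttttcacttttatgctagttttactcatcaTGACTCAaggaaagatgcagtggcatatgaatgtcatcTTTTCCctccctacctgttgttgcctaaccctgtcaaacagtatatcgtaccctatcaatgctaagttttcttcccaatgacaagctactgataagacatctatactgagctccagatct
Itgae peak 10, chr11:73022866-73023165: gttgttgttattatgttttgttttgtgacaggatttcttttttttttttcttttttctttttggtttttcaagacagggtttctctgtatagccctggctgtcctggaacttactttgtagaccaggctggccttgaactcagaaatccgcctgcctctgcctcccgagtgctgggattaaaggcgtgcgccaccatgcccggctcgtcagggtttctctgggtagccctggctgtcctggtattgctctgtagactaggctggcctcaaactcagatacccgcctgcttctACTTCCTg
Itga4 peak 10, chr2:79003431-79003730: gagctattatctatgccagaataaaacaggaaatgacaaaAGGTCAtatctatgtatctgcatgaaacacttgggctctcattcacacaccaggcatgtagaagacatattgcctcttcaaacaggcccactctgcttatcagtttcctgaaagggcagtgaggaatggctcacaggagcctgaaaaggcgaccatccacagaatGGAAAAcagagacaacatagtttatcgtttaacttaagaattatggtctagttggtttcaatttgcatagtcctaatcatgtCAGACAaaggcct

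In the first set, the window of Cx3cr1 peak 2 held 1 RUNX and 1 SMAD match, that of Cxcr6 peak 3 held 1 SMAD match and that of Ccr9 peak 5 held 1 NFAT-like and 1 ETS-like match. In the second set, Cxcr3 peak 4 held matches to RUNX, NFAT-like, nuclear receptor and SMAD letters. Ccr2 peak 4 held AP-1 and NFAT-like letters, Itgae peak 10 an ETS-like match, and Itga4 peak 10 NFAT-like, nuclear receptor and SMAD letters. These are matches of letters, not measured binding. Among all 71509 windows of this length, 13% held AP-1, 30.0% RUNX, 22.4% NFAT-like, 15.8% ETS-like, 17.2% nuclear receptor and 27.0% SMAD letters. The shares among the 94 member windows were 13.8%, 29.8%, 25.5%, 13.8%, 20.2% and 30.9%. T-box letters were in 5.58% of all windows and 4.26% of member windows, KLF letters in 9.21% and 5.32%, and E-box letters in 17.4% and 12.8%.

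Promoters were first compared by level per kb of peak, since their widths range from 490 to 7910 bp. In naive HP1γ WT cells the promoter peak of Itga4 was the most accessible, at 13.1 ± 0.45 CPM per kb (SD, n = 3), followed by Itgb7 at 8.91 ± 0.22, Cx3cr1 at 7.06 ± 0.28, Cxcr6 at 5.78 ± 0.20, Ccr9 at 5.07 ± 0.31 and Ccr2 at 4.29 ± 0.10. Cxcr3 at 0.325 ± 0.071 and Itgae at 0.274 ± 0.094 were far below, and only this last pair of neighbours overlapped in the 3 libraries. In HP1γ WT Tconv the order of levels was Cx3cr1 (20.1 ± 2.6 CPM per kb), Itgb7 (14.9 ± 2.2), Itga4 (12.4 ± 0.76), Cxcr3 (12.3 ± 1.0), Cxcr6 (9.70 ± 0.60), Ccr2 (8.55 ± 0.76), Itgae (4.23 ± 3.2) and Ccr9 (1.49 ± 0.53). There, Itga4 and Cxcr3 overlapped, as did each neighbouring pair from Cxcr6 down to Ccr9. In bulk libraries, fewer cells with an open site and a less open site in each cell cannot be told apart.

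**Figure D1:**
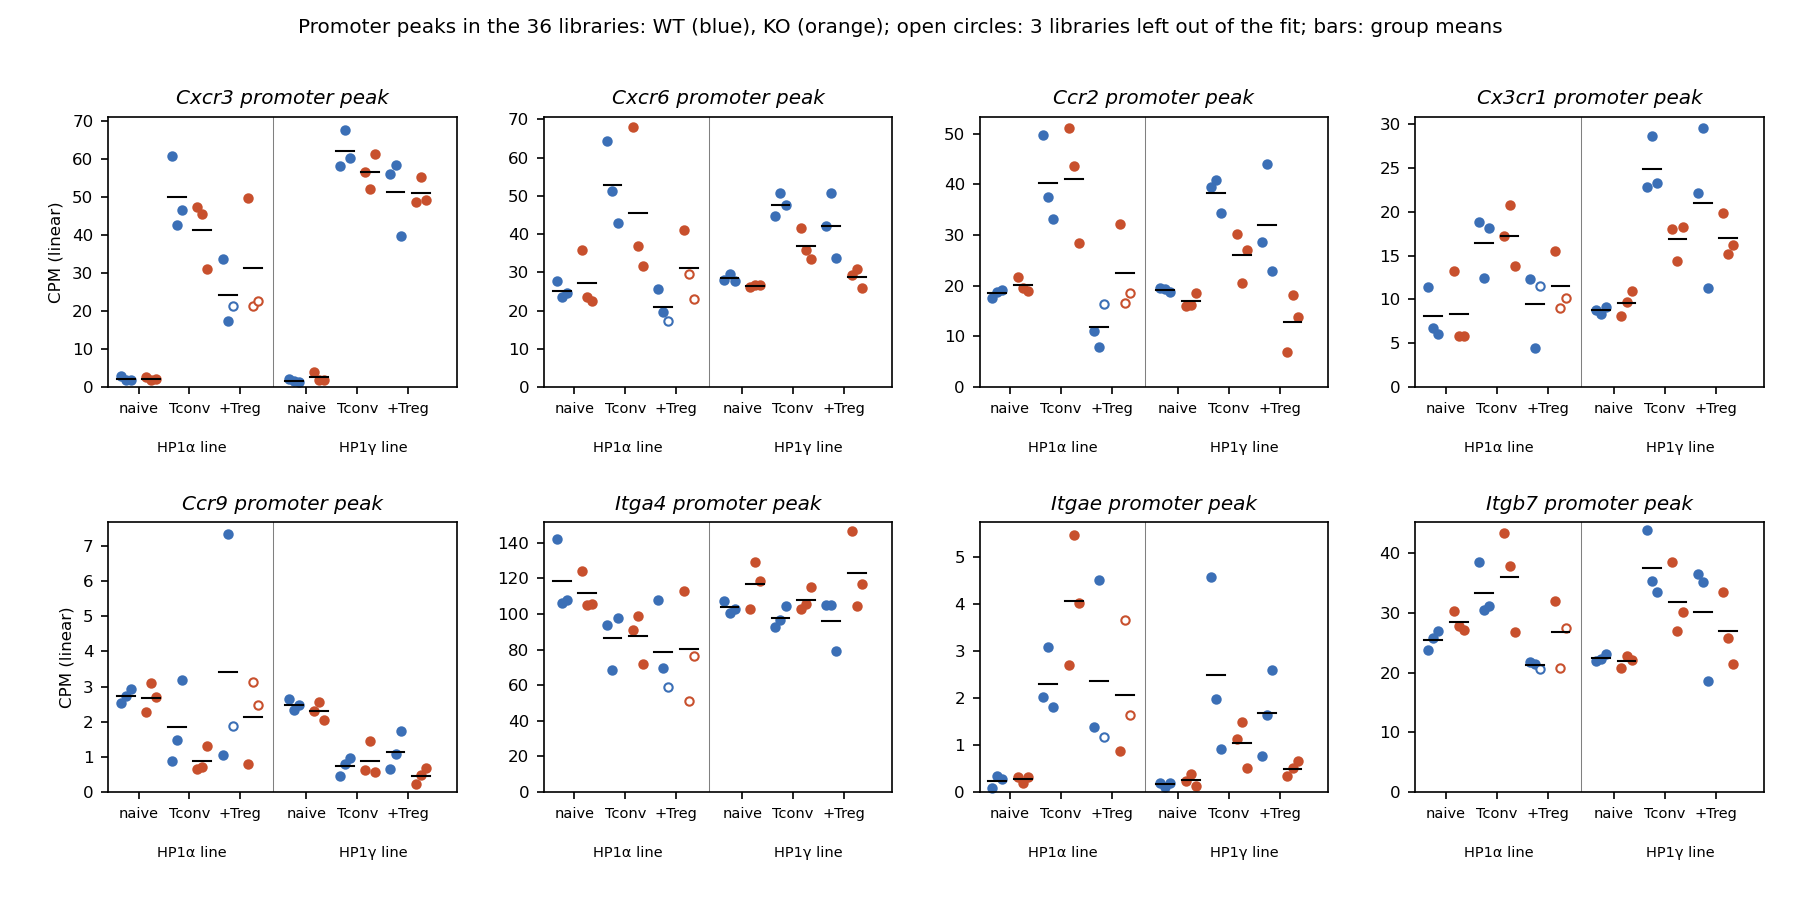
The promoter peak of each gene, in CPM on a linear axis, for naive, Tconv and Tconv with Treg (+Treg) libraries of the HP1α line (left) and HP1γ line (right). Points are libraries (WT blue, KO orange, open if left out of the fit) and bars are means of 3. Cxcr3 rises from 1.28 to 3.86 CPM in naive libraries to 17.5 to 67.8 after transfer, Ccr9 is lower in Tconv of the HP1γ line than in its naive cells, and Itga4 lies between 79.3 and 147 CPM in the HP1γ line.

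The comparison of Tconv with naive cells shows how these genes differ between resting cells and cells 3 weeks into an allogeneic response. Called peaks are those with an absolute log2 fold change above 1 whose adjusted p, from edgeR's quasi-likelihood test, was below 0.05. The naive libraries carry a library series of their own in the labels, so that series and the transfer cannot be told apart. In HP1γ WT cells 38 of the 94 peaks rose and 15 fell, where 24.5% of all peaks were called higher and 22.0% lower, and the median log2 fold change was 0.58 over the members and 0.08 over all peaks. Cebpa went from 2.98 to 4.56 CPM in the naive libraries to 11.4 to 15.1 in Tconv and Pax5 from 2.43 to 3.09 to 4.27 to 5.92, both apart, as they were in the other 3 comparisons, and their part was not tested. The member peaks called higher and lower were 32 and 14 in HP1γ KO cells (22.4% and 20.6% of all peaks), 36 and 10 in HP1α WT cells (24.9% and 17.5%) and 29 and 13 in HP1α KO cells (23.5% and 19.0%). These 4 comparisons use separate libraries. A rise was called in all 4 for 24 peaks and a fall in all 4 for 10, 27 were called in some of them, 33 in none and 0 in opposite directions. Of the 94 members these were 25.5%, 10.6%, 28.7% and 35.1%, beside 17.7%, 14.6%, 22.7% and 45.0% of all peaks.

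Cxcr3, the receptor for interferon-induced chemokines and a marker of Th1 cells, opened along its whole locus, with all 7 peaks called higher in all 4 comparisons. Its promoter peak (peak 4, chrX:100777011-100782050) had 1.99, 1.64 and 1.28 CPM in naive HP1γ WT libraries and 58.2, 67.8 and 60.2 in Tconv. The groups were far apart, with a log2 fold change of 5.26 ± 0.19 (SE, edgeR's quasi-likelihood test, adjusted p = 4.72e-13), and of 4.22 ± 0.21 to 4.62 ± 0.21 in the other 3 comparisons. The peak over its exon (peak 5, chrX:100774101-100776860) had 0.128, 0.147 and 0.177 CPM in naive HP1γ WT cells and 10.4, 12.2 and 12.7 in Tconv, a log2 fold change of 6.24 ± 0.27 (adjusted p = 1.53e-12). The other 5 peaks had 0 to 4 counts in their lowest naive library, so only their calls are given.

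At Cxcr6, Ccr2 and Cx3cr1 the promoter differed less than the peak of smallest p of the same gene. This does not hold for all nearby peaks, as in HP1γ WT cells 3 of 6 Ccr2 peaks were above 0. Cxcr6, a receptor of tissue-resident and effector T cells, had 28.0, 29.6 and 27.8 CPM at its promoter (peak 4, chr9:123633991-123638910) in naive HP1γ WT cells and 44.8, 50.7 and 47.7 in Tconv. The groups did not overlap, and the log2 fold change of 0.75 ± 0.11 stayed under the threshold of 1, which was passed only in HP1α WT cells at 1.10 ± 0.24, and there not without Tconv replicate 1 (0.96). Downstream of the gene, at 14112 bp from the TSS, peak 8 (chr9:123649061-123650230) was closed in naive cells, at 0.214, 0.0123 and 0.110 CPM, and had 8.77, 15.1 and 9.17 CPM in Tconv. It was called higher in all 4 comparisons, and since its lowest naive library held 1 count only the levels and calls are given.

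Ccr2, which recruits cells to sites of inflammation, showed the same arrangement. Its promoter (peak 5, chr9:123899931-123904410) had 19.6, 19.3 and 18.7 CPM in naive HP1γ WT cells and 39.5, 40.9 and 34.4 in Tconv. The log2 fold change was 0.61 to 1.15 over the 4 comparisons and was called in HP1α WT only, a call that was lost without Tconv replicate 1 (0.97). Peak 4 (chr9:123899079-123899860), at -2512 bp from the nearest start site, had 0.171, 0.221 and 0.210 CPM in naive cells and 9.04, 8.45 and 6.29 in Tconv. It was the only Ccr2 peak called higher in all 4 comparisons, at log2 fold changes of 4.05 to 5.29.

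Cx3cr1, the fractalkine receptor of cytotoxic effector cells, had 8.76, 8.39 and 9.1 CPM at its promoter (peak 4, chr9:119896771-119898010) in naive HP1γ WT cells and 22.8, 28.7 and 23.3 in Tconv, a log2 fold change of 1.51 ± 0.20 (edgeR's quasi-likelihood test, adjusted p = 1.86e-06). In the other comparisons it was 1.07 in HP1α WT and 1.04 in HP1α KO cells, calls that were each lost in 3 of 6 fits without 1 library, and 0.79 in HP1γ KO cells, which was not called. The intronic peak 6, 8778 bp inside the gene, rose more, from 0.641, 0.625 and 0.563 to 13.9, 14 and 18 CPM, and was called in all 4 comparisons (log2 fold changes of 3.92 to 4.64). The 3 peaks upstream of the promoter were called higher in none of the 4 comparisons, and peak 2 fell in HP1γ KO cells (-1.05 ± 0.18, and -0.96 without Tconv replicate 1).

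Ccr9 was the receptor whose promoter fell. The promoter peak (peak 14, chr9:123596021-123596510) had 2.64, 2.33 and 2.48 CPM in naive HP1γ WT cells and 0.445, 0.787 and 0.954 in Tconv, with no overlap. It fell in all 4 comparisons, with log2 fold changes of -1.81 in HP1γ WT, -1.47 in HP1γ KO, -1.26 in HP1α WT and -1.91 in HP1α KO cells. The HP1α WT call was lost without Tconv replicate 1, at -0.53 (adjusted p = 0.395), and by DESeq2, at -0.70. The intronic peak 16, at 2259 bp, fell with it (log2 fold change -2.48 in HP1γ WT cells, with 6.18, 6.09 and 7.11 CPM in naive cells and 0.534, 1.39 and 1.71 in Tconv). The annotated body of Ccr9 is long and also spans peaks that lie nearer to Lztfl1, and those behaved otherwise. Peak 5 (chr9:123551691-123553010) had 2.17, 2.21 and 1.98 CPM in naive HP1γ WT cells and 14, 15.6 and 14.6 in Tconv and rose in all 4 comparisons (log2 fold changes of 2.2 to 2.80).

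The integrin genes showed 3 patterns. Itgae rose at its promoter (peak 4, chr11:72981221-72981810), from 0.199, 0.0980 and 0.188 CPM in naive HP1γ WT cells to 4.59, 1.98 and 0.915 in Tconv, which is a wide spread around a low level. It was called higher in all 4 comparisons, and with 4 counts in the lowest naive library no fold is given. The call in HP1γ KO cells (adjusted p = 0.0373) was lost without Tconv replicate 1 or 2 or naive replicate 1 or 3, at adjusted p of 0.0659 to 0.221. Inside the annotated gene but nearest to Haspin, the exonic peak 10 (chr11:73021451-73024580) rose from 5.68, 6.15 and 5.79 CPM to 27.5, 29.5 and 32.8, with log2 fold changes of 1.72 to 2.34.

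At Itga4 the calls lay around the promoter. The promoter peak (peak 23, chr2:79083351-79091260) had 108, 101 and 103 CPM in naive HP1γ WT cells and 92.6, 96.4 and 104 in Tconv, groups that overlap, and was called in none of the 4 comparisons (log2 fold changes of -0.50 to -0.09). Of its 29 peaks 4 rose and 7 fell in all 4. Peak 1, the most distant at -189669 bp, had 0.228, 0.123 and 0.110 CPM in naive cells and 9.60, 10.9 and 16.0 in Tconv, with 3 counts in the lowest naive library, and was called higher. Peak 10 (chr2:79003081-79004080), at -82079 bp, went the other way, from 11.5, 11.7 and 11.7 CPM to 2.64, 2.62 and 2.14 (log2 fold change -2.23 ± 0.15).

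Itgb7 was the gene with no peak called in all 4 comparisons. Its promoter (peak 4, chr15:102138671-102141190) had 22.0, 22.3 and 23.1 CPM in naive HP1γ WT cells and 44.0, 35.3 and 33.6 in Tconv, without overlap but below the fold threshold, at a log2 fold change of 0.75 ± 0.18 and of 0.27 to 0.55 in the other 3 comparisons. The upstream peak 1 fell in HP1γ WT cells (-2.08 ± 0.30) and in HP1α KO cells (-1.34) and was at -0.97 and -0.72 in the other comparisons.

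**Figure D2:**
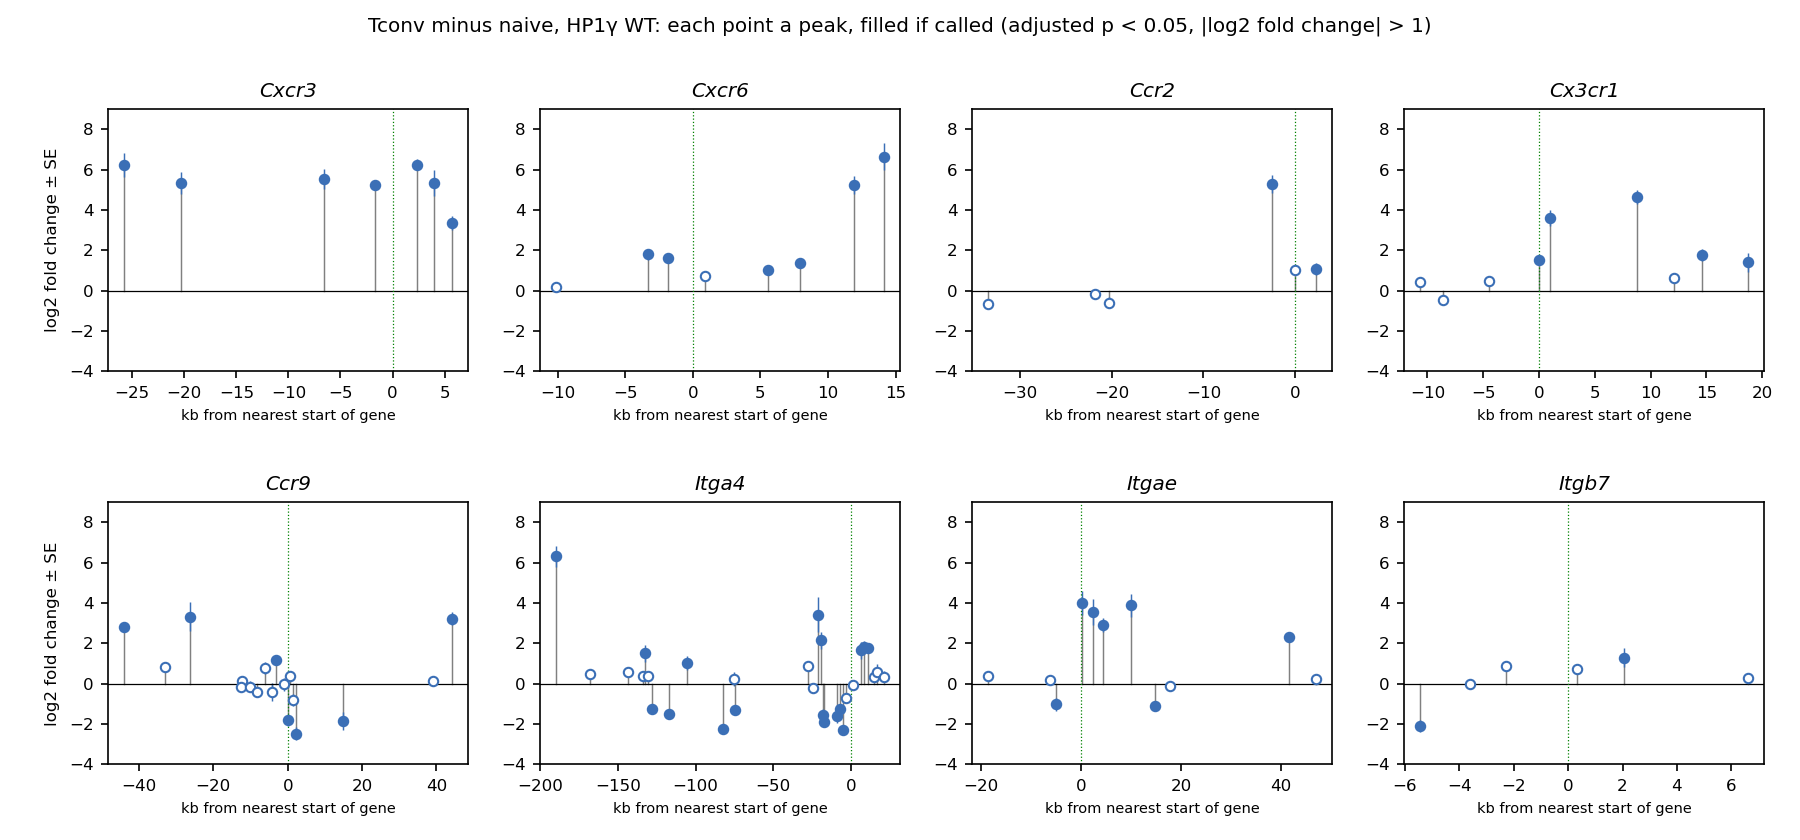
Tconv minus naive log2 fold change (y axis, ± SE) of each member peak in HP1γ WT cells against its distance in kb from the nearest start site of its gene (x axis, negative upstream). Filled points were called. All 7 Cxcr3 peaks lie above 3, while the promoter peaks of Cxcr6 (0.75), Itga4 (-0.09) and Itgb7 (0.75) are open points near peaks that were called.

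Few of these peaks were called between HP1γ KO and WT cells before transfer or in Tconv alone. In naive cells 0 of 94 peaks were called by edgeR's quasi-likelihood test, where 0.140% of all peaks were, with 2 at an unadjusted p under 0.05 (8.98% of all peaks) and 2 called by DESeq2, which called 3.27% of all peaks. The 2 were Cxcr3 peak 5 and Itga4 peak 1, both higher. Cxcr3 peak 5 had 1.36, 0.472 and 0.402 CPM in naive KO libraries against the 0.128 to 0.177 of WT given above, with no overlap and a difference of 2.07 ± 0.58 (log2, adjusted p = 0.216). Its levels in Tconv overlapped, at 10.9, 11.8 and 11.2 in KO and 10.4, 12.2 and 12.7 in WT libraries.

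In Tconv, 1 member peak was called between HP1γ KO and WT cells, where 3.35% of all peaks were. The intronic peak 7 of Itgae, 9997 bp inside the gene, fell, with 0.223, 0.229 and 0.199 CPM in KO libraries and 2.30, 0.769 and 0.448 in WT libraries, a log2 fold change of -2.54 ± 0.55 (edgeR's quasi-likelihood test, adjusted p = 0.00859). WT replicate 1 lay far above the others, and without it the difference was -1.52 with an adjusted p of 0.0781. Without KO replicate 3 it was -2.47 and was not called either. The Itgae promoter differed by -1.47 (adjusted p = 0.0677) and its intronic peak 6 by -1.0 (adjusted p = 0.0636), neither of them called. In the same libraries Cebpa was higher in KO cells (20.4 to 26.6 CPM against 11.4 to 15.1). So were Ikzf2 (49.2 to 57.6 against 31.5 to 44.2) and Cd8b1 (4.65 to 5.26 against 2.5 to 4.22). Spi1 (12.3 to 13.4 against 15.2 to 17.5) and Il2ra (24.2 to 27.1 against 30.1 to 36.9) were lower. Foxp3 was also lower (97.1 to 103 against 107 to 122), while Pax5 and Cd14 overlapped. The part of these markers was not tested.

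With Treg, HP1γ KO cells had 12 of 94 peaks lower and 5 higher than WT cells, where 5.38% of all peaks were called lower and 6.48% higher. The median difference was -0.35 over the members and -0.02 over all peaks, and 23 of the 94 were above 0. Called peaks included 2 lower of 6 for Ccr2, 3 lower of 9 for Cx3cr1, 2 lower of 8 for Cxcr6, 1 higher of 7 for Cxcr3, 2 higher and 1 lower of 18 for Ccr9, 2 higher and 3 lower of 29 for Itga4, 1 lower of 6 for Itgb7 and 0 of 11 for Itgae. Leaving out KO replicate 1 gave 6 member calls (6.38%), 0 higher and 6 lower, and leaving out WT replicate 2 also gave 6, 1 higher and 5 lower, where 5.20% and 5.21% of all peaks were called. A fit of only these groups called 0 higher and 7 lower. Of the peaks given below, Ccr2 peaks 5 and 6, Cxcr6 peak 3 and Itga4 peak 3 were still called without KO replicate 1. Without WT replicate 2 those still called were Ccr2 peaks 5 and 6, Cxcr6 peak 3, Cx3cr1 peak 2 and Ccr9 peaks 5 and 6.

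The Ccr2 promoter had 28.7, 44.1 and 23.0 CPM in HP1γ WT Tconv with Treg and 6.86, 18.1 and 13.8 in KO cells. Every KO library lay below every WT library, and the peak fell by 1.36 ± 0.25 on the log2 scale (edgeR's quasi-likelihood test, adjusted p = 0.00151). Without Treg the same peak had 39.5, 40.9 and 34.4 CPM in WT and 30.3, 20.5 and 27.1 in KO cells, also without overlap, with a difference of -0.54 ± 0.22 that was not called (adjusted p = 0.164). The exonic peak 6 of Ccr2, 2208 bp from the start site, had 0.887, 1.22 and 1.02 CPM in WT and 0.0797, 0.119 and 0.377 in KO cells with Treg, a larger fall of 2.61 ± 0.44 (adjusted p = 0.00066) at a much lower level.

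At Cxcr6 the called peaks lay beside the promoter and downstream. Peak 3 (chr9:123633431-123633910), at -1863 bp, whose sequence is given above, had 1.64, 2.39 and 1.15 CPM in WT and 0.415, 0.749 and 0.829 in KO cells with Treg, which do not overlap (log2 fold change -1.50 ± 0.29, adjusted p = 0.00213). Peak 8, the site that opens in Tconv, had 4.74, 14.6 and 4.5 CPM in WT and 1.15, 4.77 and 3.57 in KO cells, where 1 KO library lay between the WT values (-1.43 ± 0.44, adjusted p = 0.0263), and it lost its call under 6 of 15 alternatives. The promoter itself had 42.2, 50.7 and 33.6 CPM in WT and 29.3, 31.0 and 26.0 in KO cells, a small separated difference of -0.57 ± 0.12 (adjusted p = 0.00383).

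At Cx3cr1 the fall lay upstream of the promoter and just inside the gene. Peak 2 (chr9:119906811-119908210), at -8566 bp, had 6.48, 7.43 and 6.45 CPM in WT and 2.17, 4.02 and 3.34 in KO cells with Treg (-1.12 ± 0.22, adjusted p = 0.00208), and peak 1 beside it by -1.2 ± 0.27. The groups did not overlap at peak 2 or at peak 1. Peak 5, the called peak 983 bp inside the gene, held few reads. It had 54, 88 and 27 counts in WT and 21, 37 and 26 in KO libraries. The exonic peak 7 was higher in KO cells, at 147, 106 and 125 CPM against 95.3, 89.3 and 63.5, a difference of 0.58 (adjusted p = 0.00276) below the fold threshold, and the promoter differed by -0.37 and was not called.

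Ccr9 had called peaks in both directions, all of them nearer to a start site of Lztfl1. The Ccr9 promoter was not called, at 2.35 ± 1.1 CPM per kb in WT and 0.949 ± 0.47 in KO cells (SD, n = 3), which overlap. Ccr9 peak 5, the site near Lztfl1 that rose in Tconv, had 10.1, 13.5 and 9.01 CPM in WT and 2.54, 6.69 and 5.30 in KO cells with Treg, without overlap (-1.23 ± 0.24, adjusted p = 0.0022). Its neighbours peaks 6 and 7 rose, by 1.10 ± 0.25 and 1.48 ± 0.43, with 7.02, 6.65 and 4.5 CPM at peak 6 in WT and 17.8, 9.36 and 13.4 in KO cells. Their calls were lost in 2 and 3 of 6 fits without 1 library. The Cxcr3 promoter had 56.0, 58.5 and 39.9 CPM in WT and 48.6, 55.4 and 49.3 in KO cells, which overlap, and differed by -0.04 ± 0.13.

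Among the integrins, the intronic peak 28 of Itga4 rose in KO cells with Treg, with 1.2, 1.10 and 1.06 CPM in WT and 4.04, 1.55 and 2.51 in KO libraries (1.27 ± 0.33, adjusted p = 0.011). Itga4 peak 15 rose by 1.47 ± 0.49, and peaks 3, 9 and 20 fell, by 1.64 ± 0.37, 1.71 ± 0.51 and 1.27 ± 0.43. Of 6 fits without 1 library, the call was lost in 4 for peak 15, in 5 for peak 20, in 2 each for peaks 9 and 28 and in 1 for peak 3. Peak 6 of Itga4, not called at 0.76 ± 0.13 (adjusted p = 0.000707), had 15.2, 13.9 and 9.63 CPM in WT and 23.7, 22.2 and 22.3 in KO libraries. Peak 3 had 2.91, 4.47 and 2.21 CPM in WT and 0.702, 1.63 and 0.829 in KO libraries, which are separate. Itgb7 peak 6 had 0.848, 0.726 and 1.41 CPM in WT and 0.223, 0.238 and 0.778 in KO libraries, which overlap (-1.31 ± 0.41, adjusted p = 0.03), and its call was lost in 5 of 6 fits without 1 library. The promoters of Itga4 (0.34, adjusted p = 0.0496), Itgb7 (-0.21) and Itgae (-1.60, adjusted p = 0.0935) were not called.

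In these same libraries the monocyte and macrophage markers with a peak, 3 of 6 (Spi1, Cebpa and Cd14), summed to 55.2 to 68.7 CPM in HP1γ KO and 38.3 to 44.8 in WT cells with Treg. Cebpa had 34.9 to 44.4 CPM against 13 to 21.4, while Spi1 (11.4 to 15 against 12.7 to 15.2) and Cd14 (mean 9.37 against 9.59) overlapped. The B cell marker Pax5, 1 of 4 with a peak, had 7.81 to 10.3 CPM in KO and 3.79 to 7.82 in WT libraries. The Treg markers, 2 of 2 with a peak, summed to 166 to 174 CPM in KO and 122 to 160 in WT libraries, with Ikzf2 at 72.9 to 80.2 against 33.1 to 56.2 and Foxp3 overlapping at 90.7 to 101 against 89.2 to 103. The part of these markers in the differences was not tested.

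**Figure D3:**
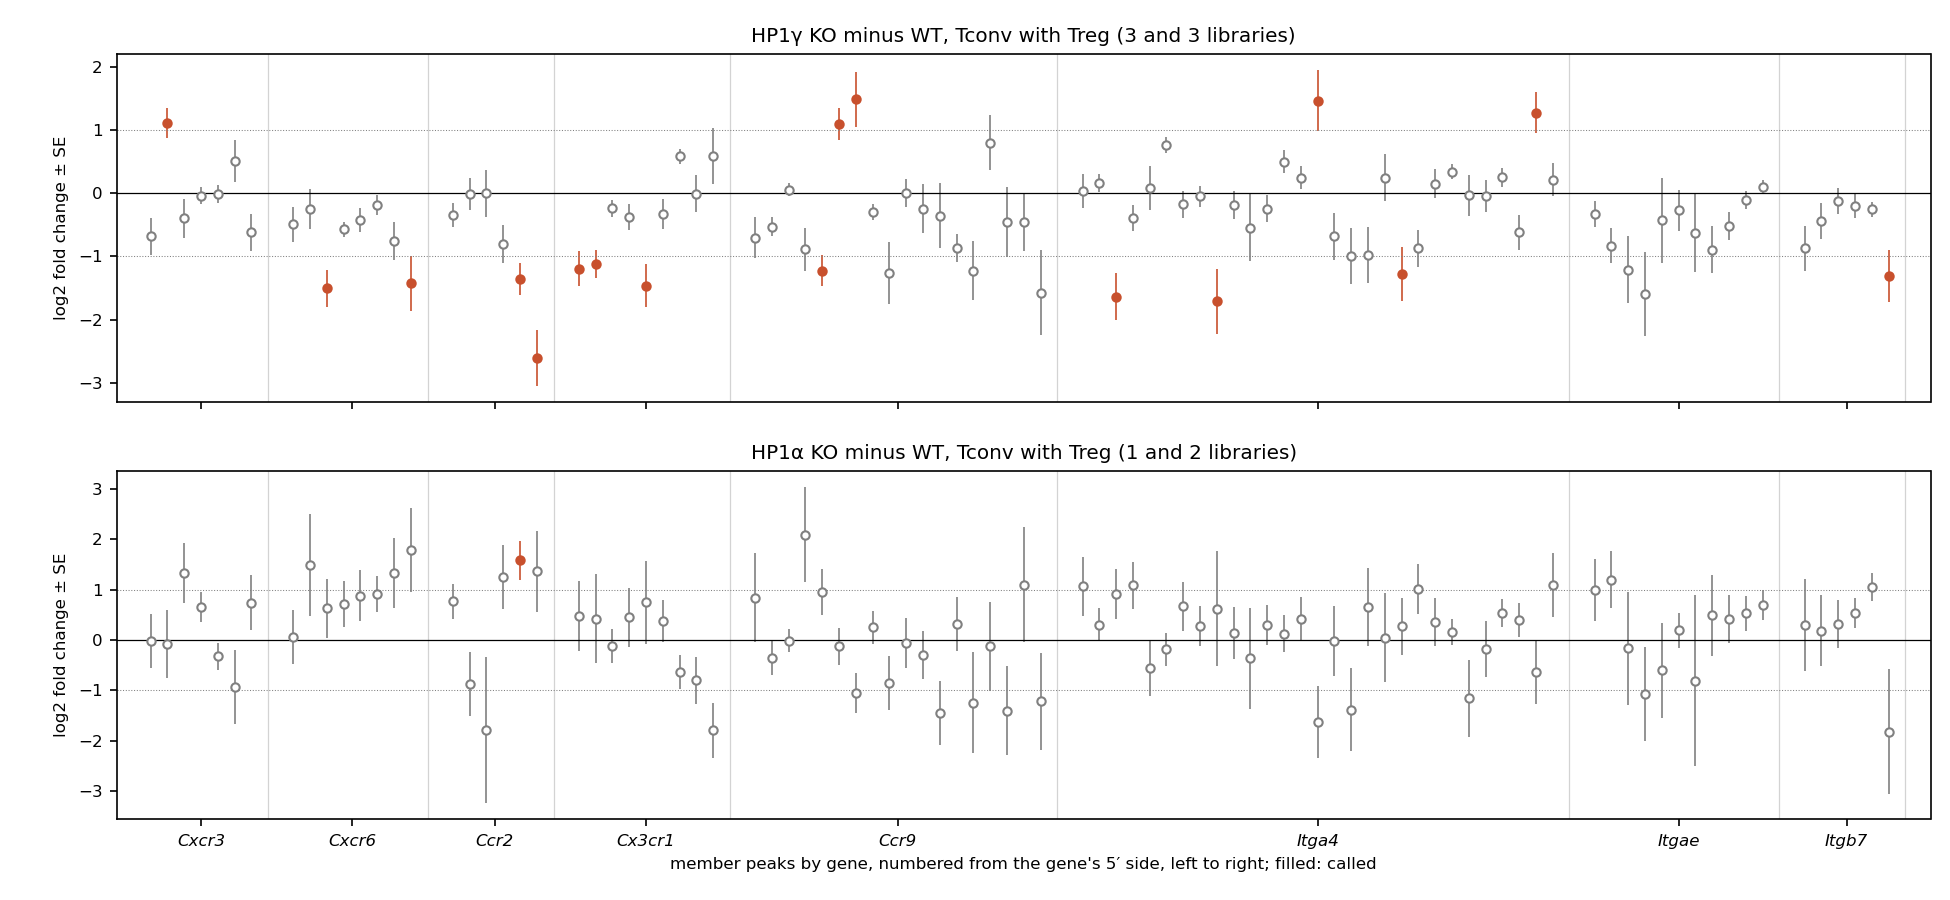
KO minus WT log2 fold change (y axis, ± SE) of the 94 peaks in Tconv with Treg, by gene along the x axis and in peak order within a gene, for HP1γ (top, 3 KO and 3 WT libraries) and HP1α (bottom, 1 and 2). Filled points were called: 5 higher and 12 lower for HP1γ, and for HP1α the Ccr2 promoter at 1.58.

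The loss of HP1α gave few calls. In naive cells 0 of 94 peaks were called by edgeR's quasi-likelihood test (0.00559% of all peaks, with 2 members and 1.17% of all peaks at an unadjusted p under 0.05, and 0 by DESeq2). In Tconv also 0 were called (0.0210% of all peaks, with 10 members and 4.82% of all peaks at an unadjusted p under 0.05, and 0 by DESeq2). The member of smallest p in both was Ccr2 peak 3, at -20286 bp. It had 0.365, 1.09 and 0.837 CPM in naive WT and 0.208, 0.139 and 0.209 in naive KO libraries, and 1.13, 0.710 and 0.757 in WT and 0.130, 0.311 and 0.159 in KO Tconv. KO libraries were below WT libraries in both conditions, at log2 differences of -2.17 ± 0.42 (adjusted p = 0.211) and -2.31 ± 0.49 (adjusted p = 0.155). At the same peak HP1γ KO and WT naive cells differed by -0.10 ± 0.28.

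With Treg, 1 of 94 peaks was called between the kept HP1α KO and WT libraries, where 1.63% of all peaks were, and the median difference was 0.29 over the members and -0.11 over all peaks. The median of all peaks was 0.05 with log2 depth as a covariate and 0.17 without WT replicate 1, where that of the members was 0.26 and 0.52. The Ccr2 promoter had 11.0 and 7.89 CPM in the 2 WT libraries and 32.2 in the KO library, and rose by 1.58 ± 0.39 (adjusted p = 0.0472). With 1 KO library this SE and p take the spread from the other groups, on the assumption that the lone library varies as they do. The libraries left out had 16.4 in WT and 16.6 and 18.6 in KO cells, and with them the difference was 1.11 ± 0.40 (adjusted p = 0.255). Without either WT library the call was lost as well, at 2.03 and 1.63. Ccr2 is on a gene list that the study chose partly on these samples. All 8 Cxcr6 peaks were above 0, with a median of 0.89 and none called, and the exonic peak 5 of Itgb7 differed by 1.04 ± 0.28 (adjusted p = 0.0684), with 39.6 CPM in KO and 20.6 and 9.02 in WT cells.

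With all HP1α libraries, 1 of 94 peaks was called, where 0.741% of all peaks were. It was the exonic peak 9 of Cx3cr1, which fell by 1.77 ± 0.41 (adjusted p = 0.0422), with 4.23, 5.64 and 4.70 CPM in WT and 1.31, 1.08 and 1.64 in KO cells, and groups that were apart. The call was lost without any 1 of the 6 libraries, at -1.71 to -1.92. In the kept libraries its difference was -1.79 with an adjusted p of 0.104. Pax5 had 14.4 to 18 CPM in these WT libraries and 5.76 to 14.4 in the KO libraries, and naive T cell markers summed to 398 to 441 and 531 to 607. The myeloid marker Spi1 had 5.64 to 7.57 CPM in the 3 WT libraries and 12.7 to 17.4 in the 3 KO libraries, apart in the same direction as the Ccr2 promoter in the kept libraries, while Cebpa (25.6 to 54.8 and 18.7 to 42.5) and Cd14 (9.11 to 11.3 and 9.82 to 15.3) overlapped. The part of these markers in the calls was not tested.

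**Figure D4:**
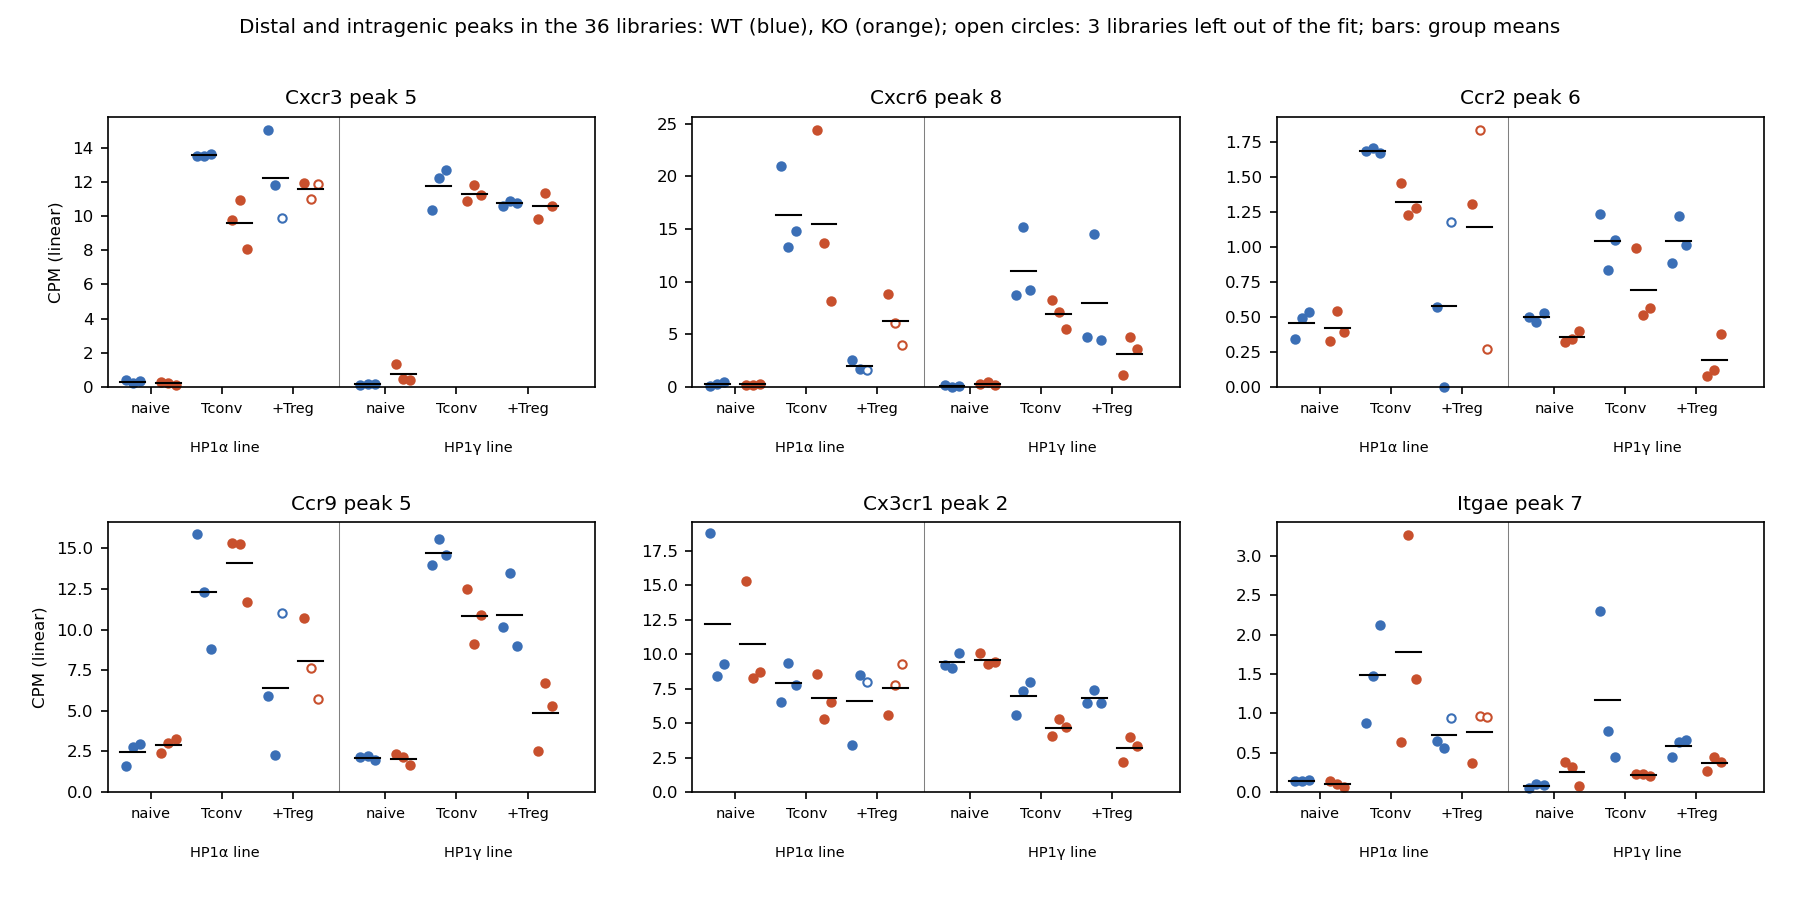
A peak with a called or otherwise described difference for 6 of the genes, in CPM on linear axes, in the same layout as the promoters (WT blue, KO orange, open points left out of the fit, bars the means of 3 libraries). In Tconv with Treg of the HP1γ line, the 3 KO points are below the 3 WT points at Ccr2 peak 6, Ccr9 peak 5 and Cx3cr1 peak 2.

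Tconv recovered with Treg were also compared with Tconv injected alone. In HP1γ WT cells 0 of 94 peaks were called by edgeR's quasi-likelihood test, where 0.137% of all peaks were, with 10 at an unadjusted p under 0.05 (20.3% of all peaks) and 1, Itgb7 peak 1, by DESeq2 (3.26% of all peaks). In HP1γ KO cells 1 rose and 7 fell, where 6.10% of all peaks were called higher and 2.06% lower. The fallen peaks were Ccr9 peak 5 (-1.21), Cxcr6 peak 3 (-1.37), Ccr2 peak 6 (-2.04), the Ccr2 promoter (-1.05), Cx3cr1 peak 5 (-1.29) and Itga4 peaks 3 (-1.40) and 9 (-1.64), and the risen one was Itga4 peak 28 (1.79). Cx3cr1 peak 7 differed by 0.60 ± 0.12 (adjusted p = 0.00251) and was not called. This comparison shares the KO libraries with Treg with the one of KO and WT above, so the calls in both are not independent. Between KO Tconv and KO Tconv with Treg, Cebpa (20.4 to 26.6 and 34.9 to 44.4 CPM), Pax5 (4.88 to 6.00 and 7.81 to 10.3), Ikzf2 (49.2 to 57.6 and 72.9 to 80.2) and Il2ra (24.2 to 27.1 and 12.1 to 20.4) were also apart. So was Cd14, which was lower with Treg (10.3 to 12.7 and 8.75 to 10), while Spi1 (12.3 to 13.4 and 11.4 to 15) and Foxp3 (97.1 to 103 and 90.7 to 101) overlapped. The summed Treg markers had 152 to 155 and 166 to 174 CPM and the monocyte and macrophage markers 45.6 to 49.2 and 55.2 to 68.7, and the part of these markers was not tested. The count was 2 (Cxcr6 peak 3 and Itga4 peak 28) without KO replicate 1 with Treg and 17 without replicate 2, where 2.98% and 13.1% of all peaks were called. Without Tconv KO replicate 1 the Ccr2 promoter and Itga4 peaks 3 and 9 were not called, and Itga4 peak 9 was also not called without Tconv KO replicate 3 or KO replicate 2 with Treg.

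In HP1α WT cells 3 peaks rose and 6 fell with Treg, where 4.92% of all peaks were called higher and 1.84% lower. The Ccr2 promoter fell by 2.00 ± 0.34 (adjusted p = 0.00198), from 49.8, 37.6 and 33.2 CPM to 11.0 and 7.89, and Cxcr6 peak 8 from 21.0, 13.3 and 14.8 to 2.60 and 1.69 (log2 fold change -2.82, adjusted p = 0.0186). At Cxcr6 peak 8 replicate 2 with Treg held 3 counts, so the size of this fold is uncertain. Itgb7 peak 5 fell by 1.16 and Itga4 peak 6 rose by 1.48. The call of Itgb7 peak 5 was lost without Tconv WT replicate 1, while that of Itga4 peak 6 was kept there. The Cxcr3 promoter, with 60.8, 42.6 and 46.6 CPM alone and 33.8 and 17.5 with Treg, was not called (-0.73 ± 0.26, adjusted p = 0.094). Without WT replicate 1 with Treg, the deeper of the 2 libraries, the count was 0 of the members and 0 of all peaks. Without replicate 2 it was 4 (4.15% of all peaks) and without Tconv WT replicate 1 it was 2 (2.06%), and Cxcr6 peak 8 was called in neither. Across all 3 libraries of each group the B cell marker Pax5 had 4.85 to 6.87 CPM in WT Tconv and 14.4 to 18 with Treg, Spi1 13.6 to 18.3 and 5.64 to 7.57, and Cd3e 61.3 to 89.9 and 22.1 to 52.0. Every library with Treg was thus higher for Pax5 and lower for Spi1 and the T cell gene Cd3e. Of the other monocyte and macrophage markers, Cebpa was higher with Treg (17.9 to 23.8 and 25.6 to 54.8 CPM) and Cd14 overlapped. The T cell markers summed to 636 to 824 and 438 to 682 CPM, the activated effector markers to 196 to 274 and 116 to 184, and the naive T cell markers to 529 to 604 and 398 to 441. The part of these markers in the calls was not tested. In HP1α KO cells 1 peak was called, where 0.548% of all peaks were, the Itgae promoter, which fell by 2.18 ± 0.49 (adjusted p = 0.0481) with 2.69, 5.48 and 4.03 CPM in Tconv and 0.873 in the KO library with Treg. This SE and p again take the spread of a lone library from the other groups. The libraries left out had 3.67 and 1.64, the first of them within the range of Tconv, and without Tconv replicate 2 the difference was -1.81 (adjusted p = 0.0974).

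**Figure D5:**
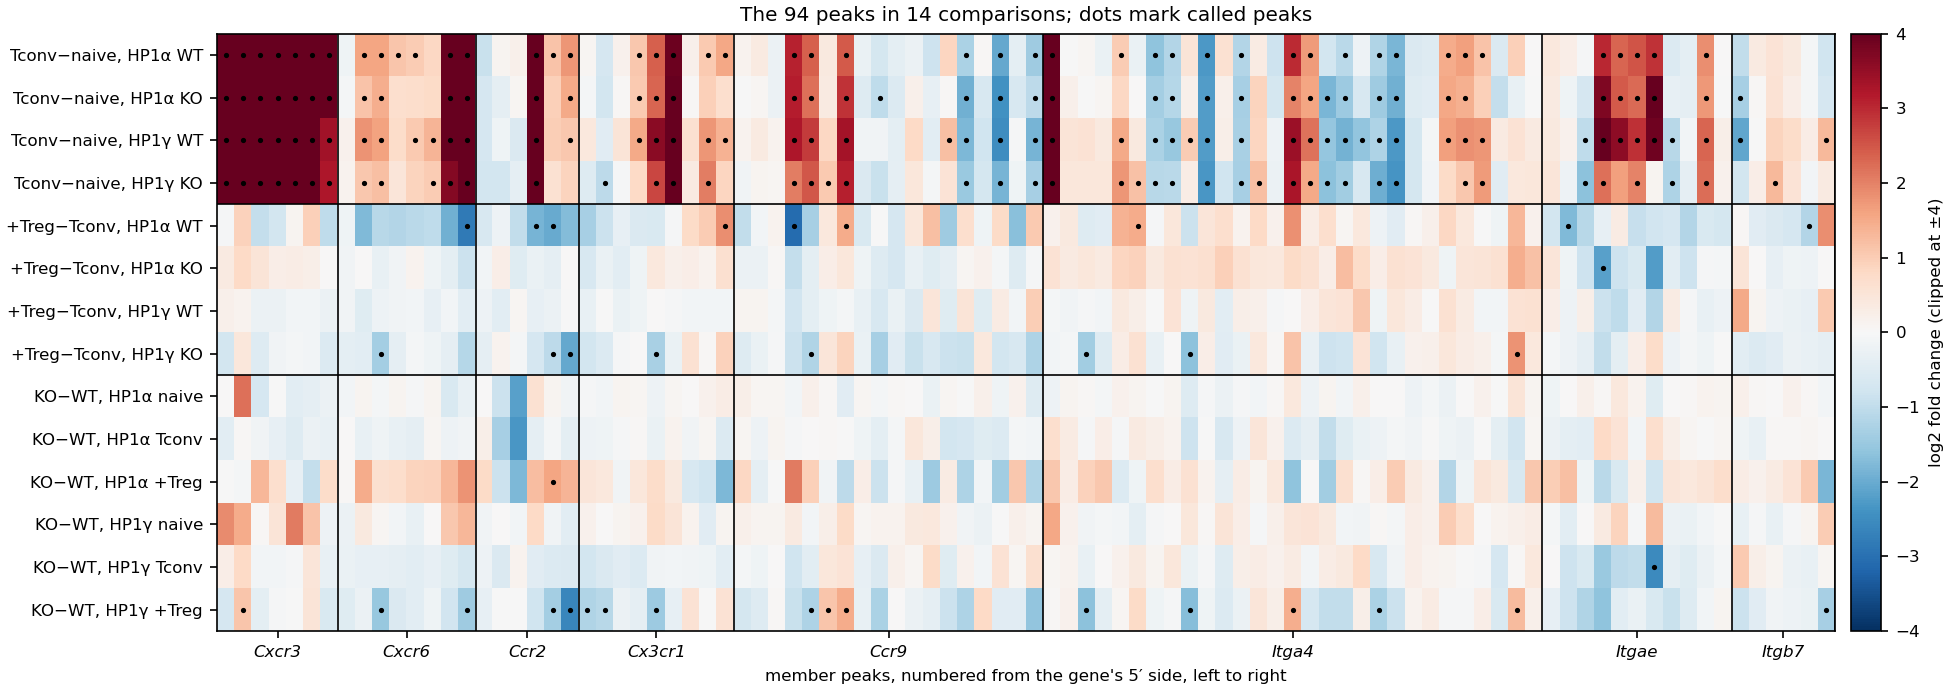
Log2 fold change (colour, clipped at 4 either way) of the 94 peaks, grouped by gene along the x axis, in 14 comparisons along the y axis, with dots on called peaks. The 4 upper lines, Tconv minus naive, hold 46, 42, 53 and 46 dots, and among the 6 lower lines, KO minus WT, 17 of the dots belong to HP1γ with Treg.

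Whether the effect of a knockout differed between conditions was tested as an interaction. Between Tconv with and without Treg, 0 of 94 members were called for HP1γ by edgeR's quasi-likelihood test (0.00140% of all peaks). At an unadjusted p under 0.05 were 18 members and 12.8% of all peaks, and DESeq2 called 1 member, Itgb7 peak 1, and 1.12% of all peaks. For HP1α 0 members were called (0.0461% of all peaks), with 11 members and 10.3% of all peaks at an unadjusted p under 0.05, and DESeq2 called 1, the Ccr2 promoter, and 0.295% of all peaks. The Ccr2 promoter had an interaction of -0.82 ± 0.34 for HP1γ (adjusted p = 0.35) and 1.64 ± 0.42 for HP1α (adjusted p = 0.182). A change of the knockout effect with Treg was therefore not shown by this test for any of these peaks. Between Tconv and naive cells 0 members were called for HP1γ (0.0140% of all peaks), with 13 members and 9.51% of all peaks at an unadjusted p under 0.05 and 2, Cxcr3 peak 5 and Itgae peak 7, by DESeq2 (1.93% of all peaks). For HP1α 0 were called (0% of all peaks), with 3 members and 1.80% of all peaks at an unadjusted p under 0.05 and 0 members by DESeq2.

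Other genes of the same pathways were read from 4 lists, with peaks assigned in the same way. In Tconv against naive HP1γ WT cells, other chemokine receptors had 46 of 127 peaks higher and 20 lower, other integrin subunits 91 and 51 of 194, genes of selectin ligands and gut homing 27 and 1 of 38, and regulators of residency and homing 147 and 73 of 350, where 24.5% of all peaks were higher and 22.0% lower. The median log2 fold changes of the lists were 0.62, 0.88, 1.99 and 0.56, against 0.08 over all peaks. Gcnt1, an enzyme that builds selectin ligands, rose at 14 peaks, including its promoter peaks at 4.30 and 4.43. Tbx21, the Th1 master factor, rose at its start site by 3.35.

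Between HP1γ KO and WT cells with Treg, the other chemokine receptors had 15 of 127 peaks higher and 8 lower (median 0.07), the other integrins 12 and 47 of 194 (median -0.45), the selectin ligand and gut homing genes 6 and 3 of 38 (median -0.04) and the regulators 14 and 46 of 350 (median -0.32), where 6.48% of all peaks were called higher and 5.38% lower. Cxcr4, the receptor for CXCL12, had 9 peaks called, all higher, the one of smallest p at 1.85 (adjusted p = 0.000192). Cxcr5, the receptor that guides T cells to B cell follicles, rose by 1.65 in its gene body (adjusted p = 2.62e-05) and by 1.35 and 1.26 at start sites. Cxcr1 had 2 called peaks, both lower, and Ccr4 had 3 lower and 1 higher. Among integrins, Itgb1, the β1 subunit with which α4 also pairs, had 17 peaks called lower, down to -2.17, and 1 higher. Itga1, a collagen receptor subunit of tissue-resident cells, fell at a peak in its body by 2.36 and Itgax at its start site by 1.46, while Itgb8 rose at its start site by 2.00. Of the regulators, the TGF-β receptor gene Tgfbr2 had 13 peaks called lower and 1 higher, and Prdm1, which encodes Blimp-1, 7 higher and 2 lower. Zfp683, which encodes the residency factor Hobit, had 5 called peaks, all lower, the one of smallest p at -1.89. Peaks were assigned to the nearest start site, so many lie away from the gene. All called peaks of Cxcr4, Cxcr1, Ccr4 and Zfp683 were outside the gene body. So were most of those of Itgb1, with the one at -2.17, and of Tgfbr2 and Prdm1.

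Between HP1γ KO and WT Tconv the 4 lists had 1, 2, 0 and 0 peaks higher and 4, 4, 4 and 11 lower, together 3.67% of their 709 peaks beside 3.35% of all peaks. In HP1γ naive cells only 1 regulator peak was called, higher, and in HP1α cells with Treg the kept libraries gave 0, 3, 0 and 4 peaks higher and 3, 6, 0 and 2 lower, together 2.54% beside 1.63% of all peaks.

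Over the 12 group means of log2 CPM, the start-site peaks most like each promoter were found among 12505 others, as a description that rests on shared libraries and depth. The Cxcr3 promoter was followed most closely by those of Il2rb (Pearson r = 0.998), Tbx21 (0.997) and Ifi211 (0.997), Cx3cr1 by Sh2d2a (0.985), Ccr2 by Mylpf (0.984), Itgb7 by Vrk1 (0.986), Ccr9 by Kcnh5 (0.978), Itgae by Lama5 (0.975), Cxcr6 by Ppp1r16b (0.958) and Itga4 by C1galt1c1 (0.948).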

How the data were processed

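The authors deposited raw counts of reads in consensus peaks for 36 ATAC-seq libraries. From the study's methods and the submitters' processing notes, reads were trimmed with Trim Galore 0.6.7, aligned with BWA to GRCm39, filtered for mapping quality, duplicates and blacklisted regions, HMMRATAC peaks of the single samples were merged, and reads were counted with featureCounts 2.0.3, so that a read can count for neighbouring peaks. Of 71512 intervals, 3 without width were left out. All columns matched a sample, and 0 per-sample columns were left unused. Depth, 1.49 to 96.8 M reads in peaks, limits the precision in the shallowest libraries.

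Peaks were assigned on GENCODE for GRCm39. HP1α (15 libraries kept by the study, and separately all 18) and HP1γ (18) were fitted apart with the quasi-likelihood test of edgeR 4.0.16 in R 4.3.3, two-sided, after filterByExpr and TMM scaling, with Benjamini-Hochberg adjustment over all peaks of each of 19 comparisons. A call required an absolute log2 fold change above 1 with an adjusted p below 0.05. CPM are TMM-scaled within a line, and their log2 values had 2 as prior count. Biological variation (BCV) was 26.6% (HP1α), 30.6% (all HP1α libraries) and 22.2% (HP1γ).

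The members and lists were chosen with earlier results of these data known. Named with values were each gene's promoter peak and, in each family of comparisons, its peak of smallest p, except 1 member peak that is not reported here, and other called members are named as examples chosen after their values were seen. Windows of 300 bases over an annotated UTR (15 of the members, among them Ccr2 peak 6) are not printed. Whether equal replicate numbers pair libraries was checked from how their deviations from group means correlated. Every pair was over 0.1 for naive HP1α cells of both genotypes (0.25 to 0.51), for Tconv with Treg of the HP1γ line (0.15 to 0.32) and for WT Tconv of that line, alone and with Treg (0.2 to 0.29), while no label explains the numbers. Simulated data were used to test the fit, with 200 peaks changed by 2 on the log2 scale. It recovered 83.5% with 28 false calls for HP1γ KO and WT with Treg, 31.5% with 59 for the kept HP1α libraries, 49.5% with 13 for all HP1α libraries and 74.0% with 31 for Tconv and naive HP1γ WT cells. The kept HP1α libraries thus gave the fewest recovered peaks and the most false calls. Calls of that fit, the Ccr2 promoter among them, carry this limit.

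Alternatives were RLE factors, library size alone, loess offsets (span 0.3), no filter beyond 1 read, log2 depth as a covariate, a replicate block, only the groups compared, all HP1α libraries, DESeq2 1.42.0, peaks in the gene body or within 10 kb of a TSS, leaving out each library, and, added after seeing the data, edgeR's legacy quasi-likelihood. Figures were drawn with matplotlib 3.10.9.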

Additional observations from a re-analysis of the deposited data

Results flagged for a closer look

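At the Ccr2 promoter peak, KO minus WT in Tconv with Treg went in opposite directions for the 2 proteins, at log2 fold changes of 1.58 for HP1α and -1.36 for HP1γ, a difference of 2.94. The 1 kept HP1α KO library lay above the 2 kept WT libraries, and every HP1γ KO library lay below every WT library. The difference between the lines was not tested, and the HP1α value rests on 1 KO and 2 WT libraries, with the spread of the lone KO library taken from the other groups. With all HP1α libraries the KO values were 32.2, 16.6 and 18.6 CPM and the WT values 11.0, 7.89 and 16.4.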

How the results depend on the processing

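Under the alternatives, of the values of named member peaks 2169 kept direction and call, 143 lost and 33 gained a call, and 7 reversed, each from an uncalled difference near 0: Ccr2 peak 3 between HP1γ KO and WT naive cells (-0.10), at 0.031 by legacy quasi-likelihood and -0.36 to 0.24 without 1 library, and the Cxcr3 promoter with Treg (-0.04), at 0.0077 with RLE factors, 0.037 by DESeq2, and -0.16 to 0.035 without 1 library. Of the counts of called members, 265 stayed within 1.5 times and 60 did not, and where not given in the text the cause was not tested. The share of all peaks called under the same setting follows each count, and these shares moved too. For HP1α KO and WT with Treg (1 called, 1.63%) the count was 0 with RLE factors (1.42%), log2 depth as a covariate (0.0573%) or only the groups compared (0%), and 2 (Ccr2 peak 5 and Itgb7 peak 5) with library size alone (1.84%), the replicate block (2.68%) or DESeq2 (3.57%). With all libraries (1, 0.741%) it was 0 with library size alone (0.677%), log2 depth (0.524%), the replicate block (1.08%), legacy quasi-likelihood (0.0014%) or only the groups compared (0%). For HP1γ it was, in naive cells (0, 0.140%), 1 by legacy quasi-likelihood (0.583%) or only the groups compared (1.5%) and 2 by DESeq2 (3.27%), in Tconv (1, 3.35%) 2 by loess offsets (3.83%) or DESeq2 (3.44%) and 0 with only the groups compared (0.643%), and with Treg (17, 11.9%) 7 with only the groups compared (5.11%), all lower. For Treg in HP1α WT cells (9, 6.77%) it was 2 with log2 depth (2.42%), 19 with the replicate block (10.2%), 14 by legacy quasi-likelihood (7.5%) and 15 by DESeq2 (9.51%). In HP1α KO cells (1, 0.548%) it was 0 with library size alone (0.461%), loess offsets (0.380%), legacy quasi-likelihood (0%), DESeq2 (0.145%) or only the groups compared (0%), 4 with the replicate block (1.2%) and 3 with all libraries (1.45%). In HP1γ WT cells (0, 0.137%) it was 1 by loess offsets (Ccr9 peak 4, 1.09%), legacy quasi-likelihood (0.959%) or DESeq2 (Itgb7 peak 1, 3.26%), and in HP1γ KO cells (8, 8.15%) 0 with only the groups compared (0.849%). Interactions (0 each) gave by DESeq2 1 with Treg for either protein (0.295% for HP1α, 1.12% for HP1γ) and 2 between Tconv and naive cells for HP1γ (1.93%). Tconv against naive HP1γ KO cells gave 29 of its 46 when only gene bodies and 10 kb around a TSS were taken. This setting only drops member peaks from the same fit, and no call of a peak that was kept changed. The 29 were 22 higher and 7 lower, where 22.4% of all peaks were higher and 20.6% lower. In the paired comparisons the replicate block moved no count of calls by over 1.5 times.

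Without 1 library the counts ranged from 0 to 1 for HP1α KO and WT naive cells (Ccr2 peak 3 without WT replicate 1, Ccr2 peak 2 without KO replicate 1), 0 to 0 with Treg in the kept and in all libraries (1 each, 0 to 0.729% and 0 to 1.07% of all peaks), 0 to 4 for HP1γ Tconv (1.34 to 5.30% of all peaks, 4 Itgae peaks without WT replicate 3, 0 without WT replicate 1), 6 to 24 for HP1γ with Treg (5.20 to 16.2%), 0 to 13 for Treg in HP1α WT cells (0 to 8.11%), 1 to 2 in HP1α KO cells (0.498 to 0.973%) and 2 to 17 in HP1γ KO cells (2.98 to 13.1%). They ranged from 37 to 47, 41 to 45, 48 to 52 and 41 to 46 for Tconv against naive cells (HP1α WT and KO, HP1γ WT and KO). The share of all peaks in these Tconv fits is not given, so the ranges do not tell members from all peaks. For the HP1α naive cells, the calls over all peaks were 8 without WT replicate 1 and 4 without KO replicate 1. Without the single kept HP1α KO library with Treg no fit was run. Among HP1γ calls with Treg, Ccr2 peaks 5 and 6 and Cxcr6 peak 3 were called in each of 16 settings, while Ccr9 peak 5 and Cx3cr1 peak 2 were at -0.86 and -0.87 without KO replicate 1. Over all peaks the median HP1α difference with Treg was -0.11 and ranged over the alternatives from -0.15 with library size alone to 0.17 without WT replicate 1, while that of the members ranged from 0.23 to 0.52.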

Other observations

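In naive cells of the HP1α line, the Cx3cr1 locus stood apart in the libraries numbered 1 of both genotypes. The upstream peak 1 had 21.1 CPM in WT replicate 1 against 10.9 and 12.2 in the others and 20.5 in KO replicate 1 against 10.9 and 10.4, and peak 2 had 18.7 against 8.40 and 9.29 in WT and 15.3 against 8.26 and 8.70 in KO cells. The promoter had 11.4 against 6.77 and 6.01 in WT and 13.2 against 5.78 and 5.88 in KO cells.

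The Ccr9 promoter in HP1α WT cells with Treg had 7.33 CPM in replicate 2, the shallowest library, against 1.06 in replicate 1 and 1.88 in the replicate left out.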
